A study of Mus musculus with 6 samples.

Results

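Retinoic acid is the hormone-like acid that cells make from vitamin A, and the 7 genes described here encode enzymes that make it or turn its precursor back, and receptors that bind it: Rdh10, Dhrs3, Rdh12, Aldh1a2, Aldh1a3, Rara and Rarg. They were chosen by name, all 7 were present in every count matrix, and they are 7 of the 31053 mouse genes counted. The data are 6 droplet single-cell RNA-seq libraries that count the 3′ end of each transcript with unique molecular identifiers (UMIs), 3 of dendritic cells (DCs) grown from C57BL/6J bone marrow with GM-CSF and 3 of skin wounds. The study asked what loss of Ndrg2, a gene of the N-myc downstream-regulated family, does to DCs and to the wounds that receive them. Untreated DCs, DCs stimulated with vitamin D3 (calcitriol, VD3) for 24 h from day 7 of culture (VD3-DCs), and DCs in which Ndrg2 was knocked out with Cas9 and 3 guides (Ndrg2-KO DCs) were compared in culture; only cells in suspension were used. The wounds were splinted skin excisions on 6-week-old mice, taken on day 10 from 5 mice per group, and received collagen-pullulan hydrogels that carried control DCs, Ndrg2-KO DCs or no cells (blank hydrogels). The labels call the control DCs untreated, whereas the methods describe control cells nucleofected with non-targeting guides. The Ndrg2-KO DCs were nucleofected and the untreated DCs of the culture comparison were not, so that the knockout, the nucleofection and the library itself cannot be told apart.

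Each condition is 1 library, so no difference between conditions could be tested against replicate error, and no p-value is given. Values are UMIs per 1000000 UMIs of a library or of a cell group (CPM), with an exact Poisson 95% interval; ratios carry an exact binomial 95% interval. All intervals cover counting error only. Cells with at least 300 genes, fewer than 100000 UMIs and under 10% mitochondrial UMIs were kept, which left 7257 untreated DCs, 8825 VD3-DCs and 7969 Ndrg2-KO DCs, and 1948, 5681 and 3403 wound cells with control DCs, with Ndrg2-KO DCs and with blank hydrogels. Library depth was 116461484 to 143627482 UMIs in culture and 29675507 to 49240341 UMIs in wounds. Ndrg2 itself was at 4.62, 1.42 and 0.884 CPM in untreated DCs, VD3-DCs and Ndrg2-KO DCs; edited transcripts can still be counted by their 3′ ends. In wounds it was at 6.10 CPM with control DCs, 3.33 CPM with Ndrg2-KO DCs and 3.29 CPM with blank hydrogels. Any 2 libraries shared 1 to 19 barcodes of kept cells. Delivered and host cells could not be told apart in the wounds. The series' design text also speaks of GFP-labelled cells taken from wounds of joined mice, which neither the sample labels nor the methods describe for these libraries. Whether the wound cells were sorted is thus not known, and a sort would set the share of each cell type and so every value over all wound cells. An eGFP sequence counted in the wound libraries had 0 UMIs with control DCs, 1 with Ndrg2-KO DCs and 0 with blank hydrogels.

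Retinol dehydrogenases such as Rdh10 oxidise vitamin A alcohol (retinol) to retinal, and retinal reductases such as Dhrs3 and Rdh12 catalyse the way back. Retinal dehydrogenases, Aldh1a2 and Aldh1a3 among them, turn retinal into retinoic acid, which cannot be turned back. The acid enters the nucleus with carriers such as the Crabp proteins and binds receptors (Rara, Rarb, Rarg). These sit on DNA as pairs with the retinoid X receptors, and Cyp26 enzymes break the acid down. DCs of the gut are known for making retinoic acid with Aldh1a2, by which they give T cells gut-homing receptors and favour regulatory T cells. Dhrs3, Rarb and Cyp26a1 are textbook targets that retinoic acid itself switches on.

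Promoter letters are printed for Aldh1a2 and Dhrs3, the members with the largest UMI differences between the cultures, and for Rarb and Cyp26a1, the targets that held a response element. They are from RefSeq on GRCm38.p6. The 250 bases before the start of Aldh1a2 (chr9:71215539-71215788, plus strand) and of the outermost start of Dhrs3 (chr4:144892577-144892826, plus strand) are given whole, in the direction of the gene:
Aldh1a2: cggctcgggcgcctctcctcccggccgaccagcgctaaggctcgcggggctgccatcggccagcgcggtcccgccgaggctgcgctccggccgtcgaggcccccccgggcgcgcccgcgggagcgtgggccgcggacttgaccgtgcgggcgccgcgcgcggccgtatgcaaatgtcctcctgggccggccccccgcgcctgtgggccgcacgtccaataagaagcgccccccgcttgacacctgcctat
Dhrs3: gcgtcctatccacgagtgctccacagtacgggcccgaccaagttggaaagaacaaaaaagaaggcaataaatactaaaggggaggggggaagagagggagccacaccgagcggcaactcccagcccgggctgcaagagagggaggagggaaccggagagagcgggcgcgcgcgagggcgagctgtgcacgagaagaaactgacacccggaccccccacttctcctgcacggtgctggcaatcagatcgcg
From the windows of Rarb (chr14:16575427-16575726, minus strand) and Cyp26a1 (chr19:37697558-37697857, plus strand), a stretch is given. Capitals mark a direct repeat of any of 4 hexamers, the consensus AGGTCA and its variants with the letters AGTTCA, with the letters GGGTCA and with the letters GGTTCA, with 5 bases between them, the classical layout of a retinoic acid response element:
Rarb: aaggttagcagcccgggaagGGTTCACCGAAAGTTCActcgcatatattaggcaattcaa
Cyp26a1: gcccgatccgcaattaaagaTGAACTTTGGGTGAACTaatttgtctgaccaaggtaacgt
The repeat of Rarb began at position -53 from the start, and that of Cyp26a1 at -32, on the opposite strand to the gene. Repeats with spacers of 1, 2, 3 and 5 bases were searched on both strands in windows from 250 bases before to 50 after each start. Of the 7 genes described here 5 had a window, 11 windows in all, and none of these held such a repeat. Over all 32851 promoter windows, 0.0974% held a repeat with a spacer of 5. A match is a string of letters and not a measured binding site.

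In culture, the enzymes Aldh1a2 and Dhrs3 and the receptor Rara differed between libraries by the most UMIs, whereas in wounds the reductase Rdh12 did. Called here means a ratio of at least 2-fold with at least 100 UMIs in the 2 libraries together. In VD3-DCs against untreated DCs, 1 of the 6 members with enough UMIs was called higher (Rdh12) and 3 lower (Aldh1a2, Dhrs3 and Rarg), where 3.68% of 12296 genes were called higher and 6.61% lower, 10.3% together. In Ndrg2-KO against untreated DCs, 2 of 6 were called higher (Aldh1a2 and Dhrs3) and 1 lower (Rara), against 9.12% and 7.94% of genes, 17.1% together. In Ndrg2-KO against VD3-DCs, 2 of 6 were called higher (Aldh1a2 and Dhrs3) and 1 lower (Rdh12), against 12.1% and 8.08%, 20.2% together. Rdh12 had 79, 152 and 75 UMIs in untreated, VD3-DCs and Ndrg2-KO DCs. With cells under 5% mitochondrial UMIs it had 34, 62 and 8, under the minimum, so that it was not called although its log2 ratios were 1.64 for VD3-DCs against untreated DCs and -2.87 for Ndrg2-KO against VD3-DCs. These comparisons share libraries and are not independent. The median log2 ratio of the tested members was -0.71 and -0.04 in the first 2 comparisons, beside -0.07 and -0.06 over genes with at least 100 UMIs in each of the 2 libraries.

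**Figure D1:**
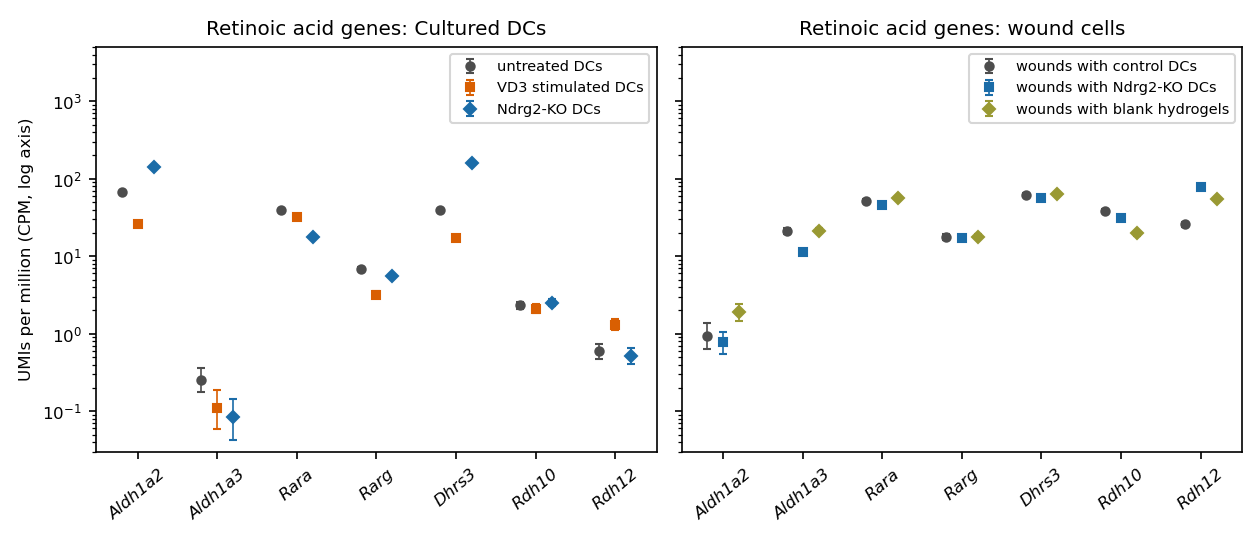
Level of each of the 7 genes in the 3 culture libraries (left) and the 3 wound libraries (right), in CPM on a log axis, with exact 95% counting intervals; VD3-DCs are named VD3 stimulated DCs in the plots. Aldh1a2 ranged from 26.0 to 142 CPM in culture and stood at 0.772 to 1.89 CPM in wounds, and Aldh1a3 and Rdh12 showed the opposite placing.

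Aldh1a2 (ENSMUSG00000013584, chr9:71215789-71296243, plus strand, GRCm38), the retinal dehydrogenase of DCs, was lower in VD3-DCs and higher in Ndrg2-KO DCs than in untreated DCs. It was at 66.7 CPM (65.3 to 68.1, 8841 UMIs) in untreated DCs, 26.0 CPM (25.1 to 27.0, 3032 UMIs) in VD3-DCs and 142 CPM (140 to 144, 20434 UMIs) in Ndrg2-KO DCs. The 3 counting intervals did not overlap. The log2 ratio to untreated DCs was -1.36 (-1.42 to -1.30) with VD3 and 1.09 (1.06 to 1.13) with the knockout, and Ndrg2-KO against VD3-DCs gave 2.45 (2.40 to 2.51). The Ndrg2-KO ratio depended on the limit on mitochondrial UMIs: with cells under 5% alone it was 0.39, and with mitochondrial and ribosomal protein genes left out of the total it was 0.99. Cells under 5% made up 43.1% of untreated but 21.6% of Ndrg2-KO DCs, and Ndrg2-KO cells had 87.1 CPM of Aldh1a2 under 5% and 153 CPM above it, against 66.6 and 66.7 CPM in untreated DCs.

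Mature DCs are DCs that have switched from taking up antigen to presenting it, and Aldh1a2 sat in them in untreated and VD3-DC cultures. Each cell was drawn down to 2000 UMIs and called mature DC-like when it held UMIs of at least 3 of 8 genes (Socs2, Tmem123, Ccl5, Cacnb3, Il4i1, Ccl22, Fscn1 and Ccr7). Mature DC-like cells numbered 3092 untreated, 3989 VD3-DCs and 2658 Ndrg2-KO cells, and other cells 3693, 3687 and 5177. The cut divides a range rather than 2 types, with 293, 433 and 942 cells at 2 genes and 149, 283 and 386 at 3.

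Within mature DC-like cells, Aldh1a2 was at 148 CPM (145 to 151) in untreated, 43.6 CPM in VD3-DCs and 282 CPM (277 to 288) in Ndrg2-KO DCs. The log2 ratio to untreated DCs was -1.77 (-1.83 to -1.70) with VD3 and 0.93 with the knockout, the same order of libraries as in all cells. The class was unlike between libraries: its cells held a median of 2 of 8 premature DC markers (Chil3, Mmp12, Cd34, Lyz2, Cx3cr1, Fn1, Csf1r and Ccr2) in Ndrg2-KO DCs and 0 in the other two, and a Ccr7 UMI in 69.7% of cells, against 82.4% in untreated and 86.3% in VD3-DCs. The clusters named mature DC-like also differed by library, cluster 2 in untreated DCs, cluster 1 in VD3-DCs and cluster 5 in Ndrg2-KO DCs. With cells under 5% mitochondrial UMIs the ratio in Ndrg2-KO DCs was 0.28.

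Outside the mature class, Ndrg2-KO DCs stood further from untreated DCs and VD3-DCs nearer to them. Other cells had 6.60 CPM (499 UMIs) of Aldh1a2 in untreated DCs, 3.22 CPM (158 UMIs) in VD3-DCs and 90.5 CPM (88.7 to 92.3, 9479 UMIs) in Ndrg2-KO DCs, which gave a log2 ratio of 3.78 between Ndrg2-KO and untreated DCs. The other cells were not alike in the mature genes they held below the cut: in Ndrg2-KO DCs 2130 held 1 and 942 held 2 of the 8 genes among 5177, and in untreated DCs 1145 and 293 among 3693. In VD3-DCs the same cells gave a log2 ratio of Aldh1a2 of -1.04.

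By cells rather than UMIs, 8.52% (7.87 to 9.21) of untreated, 3.44% (3.04 to 3.87) of VD3-DCs and 19.3% (18.4 to 20.2) of Ndrg2-KO DCs had an Aldh1a2 UMI at 2000 UMIs each; 472, 1149 and 134 shallower cells were left out. Without thinning the shares were 25.4%, 12.0% and 57.0%. In mature DC-like cells they were 17.8%, 6.29% and 29.5%, and in other cells 0.731%, 0.353% and 14.1%. For comparison within the libraries, the neutrophil-like cluster, which should lack the gene, had 11 Aldh1a2 UMIs in 927 untreated cells (2.32 CPM), 0 UMIs in 1116 cells of VD3-DCs and 0 UMIs in 34 Ndrg2-KO cells.

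The share with an Aldh1a2 UMI was not highest in the cells with the most mature genes. In untreated DCs it was 0.399% of cells with none of the 8 genes, 23.9% of those with 4 and 12.3% (9.45 to 15.7) of those with all 8. In Ndrg2-KO DCs it was 11.2% with none, 35.4% with 5 and 13.2% (7.87 to 20.3) with all 8. VD3-DCs had 0.0509% with none and 6.21% (3.89 to 9.34) with all 8. Their highest share was 38 of the 475 cells with 4 genes (interval 5.72% to 10.8%), which overlapped that with all 8.

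**Figure D2:**
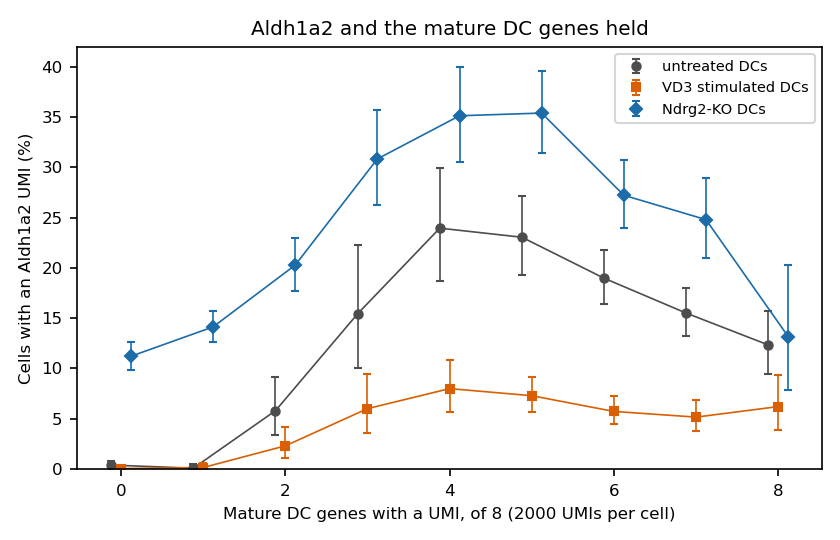
Share of cells with an Aldh1a2 UMI (per cent, exact 95% interval) against the number of 8 mature DC genes with a UMI in the same cell, each cell drawn down to 2000 UMIs, for the 3 culture libraries. Cells with none of the 8 genes gave 11.2% in Ndrg2-KO DCs against 0.399% in untreated DCs.

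Each of the 8 mature DC genes was in a larger share of the cells with an Aldh1a2 UMI than of those without one in untreated DCs, and 7 of the 8 were in Ndrg2-KO DCs. The exception was Fscn1, the actin-bundling protein of mature DCs, in 8.72% (7.35 to 10.3) of Ndrg2-KO cells with Aldh1a2 and 9.43% (8.72 to 10.2) of those without, against 46.5% and 26.0% in untreated DCs. Cd80, a costimulatory ligand, was in 3.77% and 3.94% of the same Ndrg2-KO cells and in 23.5% and 9.39% of untreated cells. Of the 578 untreated cells with an Aldh1a2 UMI, 93.4% had one of Ccl22, the chemokine of mature DCs, against 42.3% of the 6207 cells without. Il12b was in 1.73% (0.833 to 3.16) of cells with Aldh1a2 and 2.69% (2.30 to 3.12) of cells without, and these intervals overlapped. Lyz2, the lysozyme of monocytes and immature cells, was in 24.2% of untreated cells with Aldh1a2 and 64.0% of those without. In Ndrg2-KO DCs, 47.6% of the 1513 cells with Aldh1a2 had Ccl22 against 28.2% of the 6322 cells without, and 84.3% of them had Lyz2, against 90.2% of the cells without Aldh1a2.

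Cluster by cluster, Aldh1a2 was high in the mature DC-like clusters of each library. Clustering of all culture cells gave 16 clusters, most of them made up largely of 1 library, so that cluster and library cannot be told apart. Aldh1a2 was at 167 CPM in cluster 2 (2577 untreated cells), 50.5 CPM in cluster 1 (3295 cells of VD3-DCs) and 342 CPM in cluster 5 (1827 Ndrg2-KO cells), all mature DC-like by their markers. Cluster 12, a shallow mature DC-like cluster shared by the 3 libraries, had 280 CPM in 72 untreated, 58.6 CPM in 170 VD3-DCs and 293 CPM in 119 Ndrg2-KO cells, and there the untreated and Ndrg2-KO values rested on 108 and 116 UMIs. Few untreated cells fell elsewhere with as much: 22 in the unnamed cluster 13 had 238 CPM, and 23 in cluster 5 had 222 CPM. In cluster 2, 160 Ndrg2-KO cells had 114 CPM (97.3 to 133), below the untreated cells of that cluster.

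Much of the Aldh1a2 of Ndrg2-KO DCs lay in clusters not named mature DC-like. Cluster 0 (4018 Ndrg2-KO cells), held 5 of the 8 premature DC markers past the naming limits (Csf1r, Ccr2, Lyz2, Fn1 and Mmp12) but was left unnamed, since its 10 leading genes, Retnla and Arg1 among them, included a macrophage marker (Apoe) and none of these; it had 115 CPM, and cluster 10, proliferating cells (1068 Ndrg2-KO cells) with Mki67 and Top2a, had 86.3 CPM. In contrast, the proliferating cells of untreated DCs (cluster 6, 1592 cells) had 16.5 CPM, and cluster 11 (485 Ndrg2-KO cells, with Mmp9 and Chil1 among its leading genes) had 9.63 CPM. The cDC1-like cluster, the DC type that presents antigen to CD8 T cells, had 3.86 CPM.

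**Figure D3:**
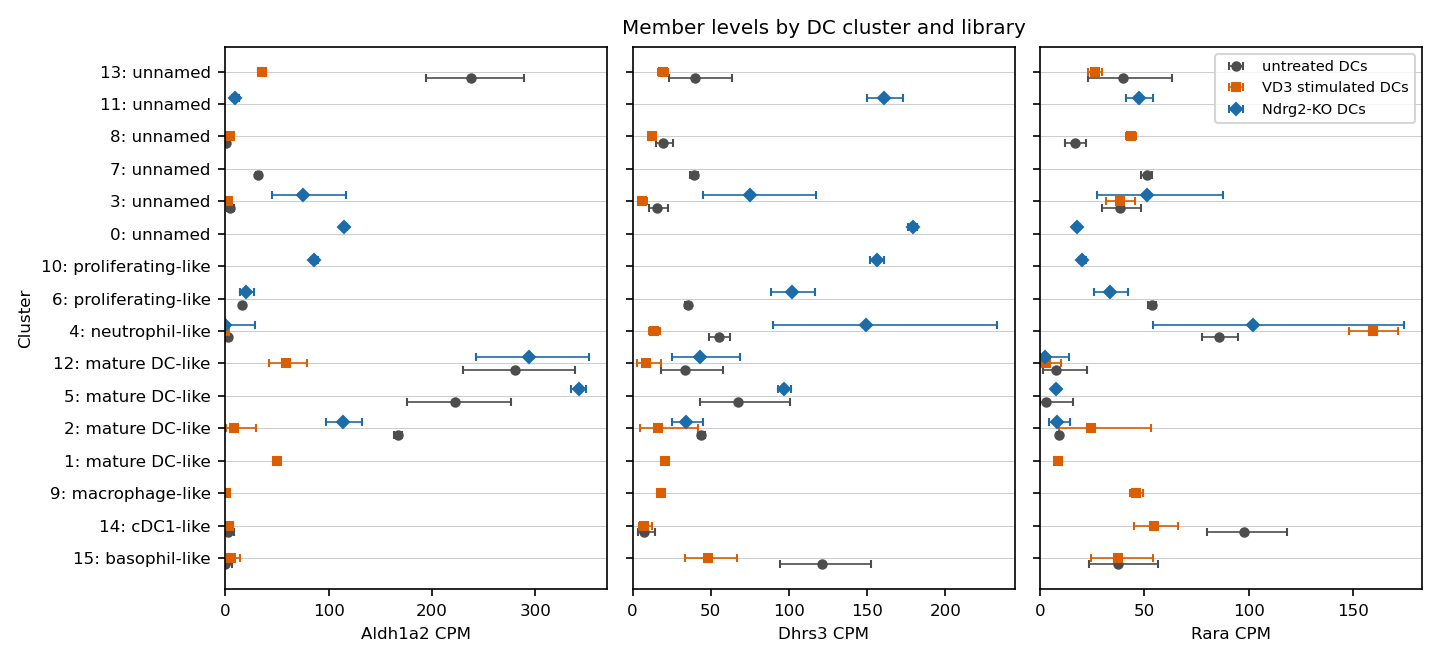
Aldh1a2, Dhrs3 and Rara in CPM (linear axis, exact 95% interval) in each of the 16 clusters of the cultured cells, 1 point per library with at least 20 cells in the cluster. Aldh1a2 reached 342 CPM in the mature DC-like cluster 5, Dhrs3 179 CPM in cluster 0 and Rara 159 CPM in the neutrophil-like cluster.

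Dhrs3 (ENSMUSG00000066026, chr4:144892827-144928209, plus strand), which reduces retinal to retinol and so takes substrate from Aldh1a2, followed the order of Aldh1a2 between libraries but was not highest in mature cells of Ndrg2-KO DCs. It was at 39.2 CPM (38.1 to 40.3) in untreated, 17.3 CPM (16.6 to 18.1) in VD3-DCs and 157 CPM (155 to 159) in Ndrg2-KO DCs, a log2 ratio to untreated DCs of -1.18 (-1.25 to -1.11) with VD3 and a 4.01-fold higher level with the knockout (log2 interval 1.96 to 2.05). The summed level of the 8 premature DC markers, all detected in each library, had the same order, at 9976, 4195 and 28330 CPM. The list was split in Ndrg2-KO against untreated DCs. There 4 were called higher (Cx3cr1, Fn1, Lyz2 and Mmp12), 2 lower (Cd34 and Chil3) and 2 neither, where 9.12% of genes were called higher and 7.94% lower. With VD3, 6 were called lower and 2 neither, beside 6.61% of genes called lower. The part of these markers in the values of Dhrs3, Aldh1a2 and Rarb was not tested. Within classes, Ndrg2-KO DCs had 111 CPM in mature DC-like and 174 CPM in other cells, whereas untreated DCs had 41.9 and 36.9 CPM and VD3-DCs 19.9 and 14.1 CPM. The Ndrg2-KO value was above the untreated one in both classes (log2 ratio 1.41 and 2.24). Cluster 11, with little Aldh1a2, had 161 CPM of Dhrs3, close to the 179 CPM of cluster 0 and 156 CPM of cluster 10. With cells under 5% mitochondrial UMIs the ratio of Dhrs3 in Ndrg2-KO DCs was 2.07.

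Rdh10 (ENSMUSG00000025921, chr1:16105774-16133734, plus strand), the retinol dehydrogenase that starts the path, was low in the cultures at 2.32, 2.11 and 2.51 CPM (307, 246 and 360 UMIs) in untreated DCs, VD3-DCs and Ndrg2-KO DCs. The log2 ratio to untreated DCs was -0.13 (-0.38 to 0.11) with VD3 and 0.11 (-0.11 to 0.34) with the knockout, and both intervals held 0. The first was 0.14 with cells under 5% mitochondrial UMIs and the second -0.10 as a mean of per-cell CPM. Rdh12 (ENSMUSG00000021123, chr12:79208914-79222665, plus strand), a retinal reductase best known from photoreceptors, had 79, 152 and 75 UMIs, or 0.596, 1.31 and 0.522 CPM. Its log2 ratio with VD3 was 1.13 (0.73 to 1.54), and most of the UMIs lay in a pair of clusters: VD3-DCs had 8.18 CPM (36 UMIs) in the neutrophil-like cluster and 2.99 CPM (82 UMIs) in cluster 8, which is unnamed and led by the granule genes Elane, Mpo and Prtn3, against 0.121 CPM in their mature cluster 1. The 8 neutrophil markers summed to 5325, 6328 and 400 CPM in untreated DCs, VD3-DCs and Ndrg2-KO DCs with none at 0. In Ndrg2-KO against untreated DCs 6 of them were called lower, 1 higher (Retnlg) and 1 neither, beside 7.94% of genes lower and 9.12% higher. The part of these markers in the difference of Rdh12 was not tested.

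Rara (ENSMUSG00000037992, chr11:98927818-98974942, plus strand), a receptor that switches genes when it binds retinoic acid, was lowest where Aldh1a2 was highest. It was at 39.7 CPM (38.6 to 40.8) in untreated, 31.9 CPM (30.9 to 32.9) in VD3-DCs and 17.9 CPM (17.2 to 18.6) in Ndrg2-KO DCs, and the log2 ratio to untreated DCs was -0.32 (-0.38 to -0.25) with VD3 and -1.15 (-1.22 to -1.08) with the knockout. The direction with VD3 was not stable: the ratio was 0.17 as a mean of per-cell CPM and 0.14 with cells under 5% mitochondrial UMIs. Mature DC-like cells had less than other cells in each library, with 17.8, 13.6 and 11.1 CPM against 55.5, 55.0 and 20.3 CPM. The lower level in Ndrg2-KO DCs was there in both classes, with log2 ratios of -0.68 and -1.45. With VD3 the log2 ratio was -0.39 (-0.52 to -0.26) in mature DC-like cells and -0.01 (-0.08 to 0.06) in other cells.

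By cluster, Rara was high in neutrophil-like cells, with 86.0 CPM in untreated DCs, 159 CPM in VD3-DCs and 102 CPM (54.3 to 174) in Ndrg2-KO DCs, and in cDC1-like cells, with 98.0 CPM in untreated and 54.8 CPM in VD3-DCs. Neutrophil-like cells numbered 927, 1116 and 34 in the 3 libraries. Away from them, clusters 6 and 7 of untreated DCs had 53.8 and 51.2 CPM, while clusters 0 and 10 of Ndrg2-KO DCs had 18.0 and 20.2 CPM. With cells under 5% mitochondrial UMIs the ratio of Ndrg2-KO to untreated DCs was -0.85 and was no longer called.

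Rarg (ENSMUSG00000001288, chr15:102234938-102257517, minus strand), the receptor best known from skin, was at 6.86 CPM (6.42 to 7.32) in untreated, 3.19 CPM (2.87 to 3.53) in VD3-DCs and 5.56 CPM (5.18 to 5.96) in Ndrg2-KO DCs. The log2 ratio to untreated DCs was -1.11 (-1.28 to -0.93) with VD3 and -0.30 (-0.44 to -0.16) with the knockout. VD3-DCs were lower in mature DC-like cells (3.84 against 7.34 CPM) and in other cells (2.30 against 6.48 CPM). With cells under 5% mitochondrial UMIs the VD3 ratio was -0.59, under the 2-fold limit. Rxra, the DNA-binding partner of these receptors, was at 12.9, 4.34 and 19.8 CPM in untreated DCs, VD3-DCs and Ndrg2-KO DCs, and Rxrb at 18.5, 29.8 and 17.2 CPM. Rxrg had 0 UMIs in the 3 cultures, which allows at most 0.0226, 0.0258 and 0.0209 CPM.

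Aldh1a3 (ENSMUSG00000015134, chr7:66390890-66427517, minus strand), another retinal dehydrogenase, was near absent from the cultures with 34, 13 and 12 UMIs, too few for a call. Of the 34 UMIs in untreated DCs 15 came from the 56 basophil-like cells, at 25.5 CPM there. Aldh1a1, a further enzyme of the same step, had 82, 44 and 0 UMIs, and its level in Ndrg2-KO DCs was at least 29.6-fold lower against a floor of 3 counts. The 7 basophil markers summed to 69.6, 64.5 and 12.4 CPM, and 5 of them (Prss34, Mcpt8, Cpa3, Ms4a2 and Fcer1a) were at 0 in Ndrg2-KO DCs. Against untreated DCs, Gata2 was called lower there too, whereas Cd200r3 was called higher. The share of basophils in the difference of Aldh1a1 was not tested.

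Genes that retinoic acid is known to switch on were also measured. Of 9 target genes (among them Rarb, Dhrs3, Cyp26a1, Cyp26b1, Hic1, Tgm2, Crabp2 and Stra6), 6 had enough UMIs and 4 were called higher in Ndrg2-KO against untreated DCs, 1 lower and 1 neither, where 9.12% of genes were called higher and 7.94% lower. Rarb is among the 4 and reached the minimum only through Ndrg2-KO DCs, where it was high. In VD3-DCs against untreated DCs, 3 of 5 targets with enough UMIs were called higher (Cyp26b1, Hic1 and Tgm2) and 1 lower (Dhrs3), where 3.68% and 6.61% of genes were. Dhrs3 counts here as well as among the 7 genes. Rarb, the receptor that carries the repeat printed above, was at 0.249 CPM (33 UMIs) in untreated, 0.172 CPM (20 UMIs) in VD3-DCs and 6.96 CPM (1000 UMIs) in Ndrg2-KO DCs, a 28.0-fold difference between Ndrg2-KO and untreated DCs with a log2 interval of 4.31 to 5.35. Of the 1000 UMIs, 681 lay in cluster 0 (8.24 CPM) and 267 in cluster 10 (9.49 CPM), whereas the mature cluster 5 had 1.86 CPM.

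Hic1, a transcriptional repressor, was at 0.784, 1.98 and 14.4 CPM in untreated DCs, VD3-DCs and Ndrg2-KO DCs, and Tgm2, a protein-crosslinking transglutaminase, at 11.7, 41.1 and 85.3 CPM. Both were thus above untreated DCs in VD3-DCs also, where Aldh1a2 and Dhrs3 were below. Cyp26a1, whose promoter holds the other repeat, had 12, 6 and 52 UMIs, a log2 ratio between 1.08 and 3.04 for Ndrg2-KO against untreated DCs, and was under the limit of 100 UMIs. Cyp26b1, another enzyme of retinoic acid breakdown, was at 1.18, 3.48 and 1.43 CPM, highest with VD3.

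**Figure D4:**
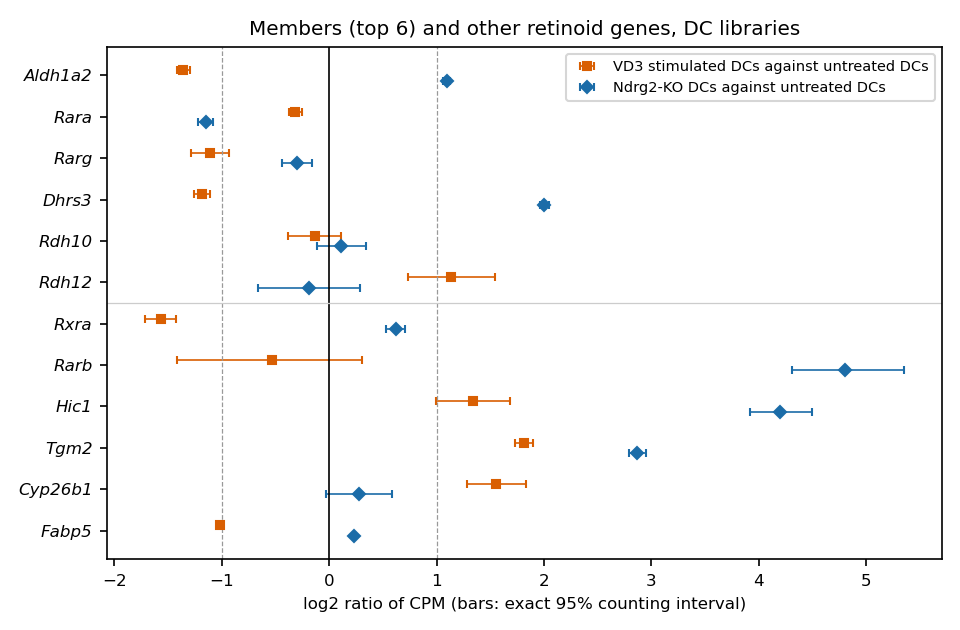
Log2 ratios of CPM against untreated DCs for VD3-DCs and Ndrg2-KO DCs with exact 95% counting intervals; dashed lines mark 2-fold, members with enough UMIs are the top 6, and Rxra, the target genes Rarb, Hic1, Tgm2 and Cyp26b1, and Fabp5 follow. Both series share the untreated library; Aldh1a2 and Dhrs3 lie on opposite sides of 0 in the 2 comparisons, and Rarb reaches 4.81 in Ndrg2-KO DCs.

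Of the 29 other genes of retinol transport, retinoic acid synthesis, carriage, reception and breakdown, 13 had enough UMIs in Ndrg2-KO against untreated DCs, of which 2 were called higher (Rarb and Rbp4), 1 lower and 10 neither. These are near the shares over all genes tested, 9.12% higher and 7.94% lower. In VD3-DCs against untreated DCs, 12 had enough, 1 was higher (Cyp26b1) and 3 lower (Dhrs9, Fabp5 and Rxra), beside 3.68% and 6.61% of genes. In Ndrg2-KO against VD3-DCs, 6 of 13 were higher (Dhrs9, Fabp5, Rarb, Rbp4, Rdh11 and Rxra) and 1 lower (Cyp26b1), beside 12.1% and 8.08%. Rarb and Rbp4 are in both counts that involve Ndrg2-KO DCs. They reached the minimum only through that library, where they were high. Dhrs9, a retinol dehydrogenase, was at 14.2 CPM in untreated, 0.730 CPM in VD3-DCs and 16.2 CPM in Ndrg2-KO DCs, 19.5-fold lower with VD3. Fabp5, a fatty acid and retinoic acid carrier, was at 2685, 1330 and 3156 CPM in the same order.

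Against wounds with control DCs, 1 of 6 members with enough UMIs was called in wounds with Ndrg2-KO DCs (Rdh12, higher), where 3.92% of 12207 genes were called higher, 5.28% lower and 9.21% in either direction, and 1 of 6 in wounds with blank hydrogels (Rdh12, higher), against 3.06% higher, 3.17% lower and 6.24% together. Between wounds with Ndrg2-KO DCs and with blank hydrogels, 1 of 7 was called (Aldh1a2, lower, on 38 and 66 UMIs), against 1.39% higher, 1.32% lower and 2.71% in either direction. The 3 comparisons share libraries. In wounds with Ndrg2-KO DCs the median log2 ratio against control DCs was -0.14 over the 10297 genes with at least 100 UMIs in each library.

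Aldh1a2 was close to absent from the wounds. It had 28 UMIs (0.944 CPM) with control DCs, 38 (0.772 CPM) with Ndrg2-KO DCs and 66 (1.89 CPM) with blank hydrogels. The 70 dendritic cell-like wound cells had 14.7 CPM (13 UMIs), 11 of the UMIs with blank hydrogels and 0 in the 24 cells with Ndrg2-KO DCs (at resolution 1.0, 9.07 CPM in 220 cells), and the 1471 macrophage-like cells had 3.72 CPM (72 UMIs). In macrophage-like cells it was at 3.03 CPM with control DCs, 2.01 CPM (1.19 to 3.17) with Ndrg2-KO DCs and 7.49 CPM (5.30 to 10.3) with blank hydrogels, on 16, 18 and 38 UMIs in 13, 13 and 12 cells. Clustered on 30 components, the value with blank hydrogels was 4.73 CPM (3.06 to 6.98) and its interval overlapped that with Ndrg2-KO DCs. Wounds had few dendritic cell-like cells with any hydrogel: 14 with control DCs, 24 with Ndrg2-KO DCs and 32 with blank hydrogels.

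Over the 3 wounds together, Aldh1a3 was highest in fibroblast-like cells at 47.3 CPM, and Rdh10 was at 68.1 CPM in fibroblast-like, 80.7 CPM in proliferating and 63.5 CPM in endothelial-like cells. Aldh1a3 was at 21.3 CPM with control DCs, 11.5 CPM with Ndrg2-KO DCs and 21.3 CPM with blank hydrogels, and 1782 of its UMIs came from fibroblast-like cells. Within fibroblast-like cells it was at 41.0, 39.5 and 66.6 CPM in the same order, and the log2 ratio there of Ndrg2-KO to control DCs was -0.05 (-0.23 to 0.12), whereas over all cells it was -0.89 (-1.06 to -0.73). This rests on the clustering: at resolution 1.0 fibroblast-like cells had 43.0 CPM (39.7 to 46.6) of Aldh1a3 with control DCs and 33.5 CPM (30.3 to 37.0) with Ndrg2-KO DCs, and the intervals did not overlap. Against blank hydrogels the ratio in fibroblast-like cells was -0.75 (-0.92 to -0.58). The 7 fibroblast markers summed to 48561, 21887 and 22118 CPM in the 3 libraries, none at 0. In keratinocyte-like cells Aldh1a3 was at 3.94, 3.13 and 46.7 CPM, on 2, 2 and 45 UMIs.

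Rdh10 was at 38.1 CPM with control DCs, 31.3 CPM with Ndrg2-KO DCs and 19.9 CPM with blank hydrogels. Fibroblast-like cells had 58.7, 92.1 and 51.3 CPM of it, and the log2 ratio of Ndrg2-KO to control DCs there was 0.65 (0.52 to 0.78), whereas over all cells it was -0.28. Endothelial-like cells, which line vessels, went the other way with 107, 29.8 and 41.6 CPM on 97, 20 and 32 UMIs in 60, 80 and 52 cells.

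Among the cell groups of the wounds, Dhrs3 was highest in macrophage-like cells, and Rara in macrophage-like and monocyte-like cells. Dhrs3 was at 62.0, 57.0 and 63.1 CPM with control DCs, with Ndrg2-KO DCs and with blank hydrogels, with log2 ratios to control DCs of -0.12 (-0.21 to -0.03) and 0.03 (-0.06 to 0.12). Macrophage-like cells had 204, 172 and 193 CPM of it and neutrophil-like cells 4.28, 6.95 and 5.94 CPM, with monocyte-like cells at 36.4, 39.4 and 40.3 CPM, below the level over all cells; the difference between macrophage-like and other cells was far above that between wounds. Over all cells the ratio with Ndrg2-KO DCs was 0.09 without neutrophil-like clusters and 0.02 with median-ratio scaling. Rara was at 51.8, 45.9 and 57.0 CPM in all cells, where the log2 ratio of blank hydrogels to control DCs was 0.14 and -0.11 as a mean of per-cell CPM, at 119, 86.2 and 110 CPM in macrophage-like cells and at 127, 91.0 and 76.9 CPM in monocyte-like cells. In neutrophil-like cells Rara was at 83.2 CPM with control DCs, 33.1 CPM with Ndrg2-KO DCs and 67.7 CPM with blank hydrogels, and the log2 ratio of Ndrg2-KO to control DCs was -1.33 (-1.62 to -1.03) on 324 and 136 UMIs. The neutrophil-like cells form a pair of clusters in unlike parts: cluster 1 held 72 of 460 cells with control DCs, 954 of 2896 with Ndrg2-KO DCs and 256 of 1561 with blank hydrogels. Rara was at 86.6, 33.5 and 73.4 CPM in cluster 0 and at 68.5, 32.5 and 47.7 CPM in cluster 1, lowest with Ndrg2-KO DCs in both.

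Rarg was in the wounds at 17.7, 17.0 and 18.0 CPM, with log2 ratios to control DCs of -0.06 (-0.22 to 0.10) and 0.02 (-0.14 to 0.19). Fibroblast-like cells had 23.6, 29.6 and 29.8 CPM and monocyte-like cells 22.9, 23.9 and 25.9 CPM, whereas neutrophil-like cells had 1.84, 2.04 and 2.88 CPM.

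Rdh12 was the member called against wounds with control DCs, and most of its UMIs came from neutrophil-like cells. It was at 25.8 CPM (766 UMIs) with control DCs, 78.3 CPM (3855 UMIs) with Ndrg2-KO DCs and 54.3 CPM (1897 UMIs) with blank hydrogels, log2 ratios to control DCs of 1.60 (1.49 to 1.71) and 1.07 (0.95 to 1.20). These calls rest on summing UMIs over cells: as a mean of per-cell CPM the ratios were 0.86 and 0.51 and neither was called, whereas Aldh1a3 was called with Ndrg2-KO DCs (-1.64) and Rdh10 with blank hydrogels (-1.14), both lower than with control DCs. Without neutrophil-like clusters, left out after the values were seen, the Rdh12 ratios were 2.52 and 1.27. Of the UMIs, 694, 3274 and 1717 came from neutrophil-like cells, which numbered 460, 2896 and 1561. Within neutrophil-like cells it was at 425 CPM (394 to 457) with control DCs, 335 CPM (323 to 346) with Ndrg2-KO DCs and 291 CPM (278 to 305) with blank hydrogels, so that wounds with control DCs were the highest there and the lowest over all cells. The log2 ratio of Ndrg2-KO to control DCs was -0.34 (-0.46 to -0.22) in neutrophil-like cells, and Ndrg2-KO DCs stayed above blank hydrogels at 0.20 (0.12 to 0.29). The 8 neutrophil markers summed to 8447, 25892 and 20182 CPM in all cells of the 3 wounds, none at 0.

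Outside neutrophils, fibroblast-like cells had 0.336, 3.42 and 1.41 CPM of it with control DCs, with Ndrg2-KO DCs and with blank hydrogels, and macrophage-like cells 1.33, 14.8 and 4.93 CPM. S100a9, the most abundant neutrophil marker, was at 26.2, 311 and 250 CPM in the same fibroblast-like cells and at 257, 1808 and 684 CPM in the macrophage-like cells. In both groups Rdh12 was higher where S100a9 was, whose part in it was not tested. Keratinocyte-like cells had 11.81, 10.96 and 19.73 CPM of Rdh12 in the same order, on 6, 7 and 19 UMIs. They had 2434, 1850 and 2459 CPM of S100a9, whose part there was not tested either. The neutrophil-like cells of the cultures had 2.32 CPM of Rdh12 in untreated and 8.18 CPM in VD3-DCs.

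**Figure D5:**
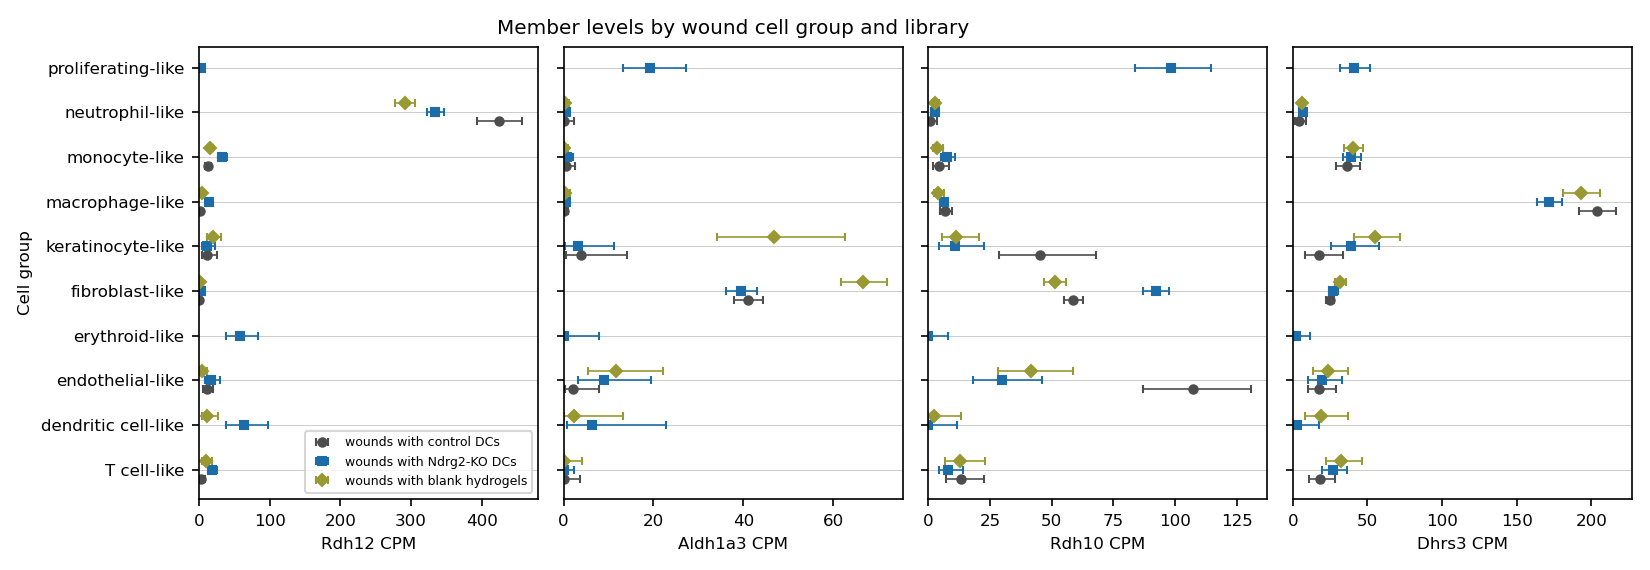
Rdh12, Aldh1a3, Rdh10 and Dhrs3 in CPM (linear axes, exact 95% interval) by named cell group of the wounds, 1 point per library with at least 20 cells in the group. Rdh12 was at 291 to 425 CPM in neutrophil-like cells, highest with control DCs, Aldh1a3 at 39.5 to 66.6 CPM in fibroblast-like cells and Dhrs3 at 172 to 204 CPM in macrophage-like cells.

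In the wounds, of 7 retinoic acid targets with enough UMIs 1 was called higher with Ndrg2-KO against control DCs (Tgm2) and 0 lower, where 3.92% of genes were called higher and 5.28% lower. Tgm2 was at 95.5 CPM with control DCs, 220 CPM with Ndrg2-KO DCs and 187 CPM with blank hydrogels, and Rarb at 2.90, 1.91 and 1.75 CPM (86, 94 and 61 UMIs). Of the 29 other retinoid genes, 19 had enough UMIs with Ndrg2-KO against control DCs and 1 was called, Rbp7, a retinol carrier, lower at 0.853 against 6.54 CPM. Crabp1, a retinoic acid carrier, was at 34.2 CPM with blank hydrogels against 6.57 CPM with control and 4.35 CPM with Ndrg2-KO DCs.

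Across the cell groups of all 6 libraries the members did not share a pattern. Over 64 sums of a cluster in a library with at least 20 cells (30 from cultures, 34 from wounds), the genes whose log level was most like Aldh1a2 by Pearson correlation were Mx1 (0.86), Mucl1 (0.86), Kynu (0.83), Pgap2 (0.83) and Insl6 (0.82), and over the 30 culture sums alone, a split made after the values were seen, Fabp5 came first (0.92). Those most like Rdh12 were Mrgpra2b (0.91), Hdc (0.91), 4732465J04Rik (0.91), Amer2 (0.90) and Ankrd22 (0.89), and over the 34 wound sums Cxcr2 (0.95) and S100a9 (0.95). Dhrs3 was most like Cndp2, Ap2m1, Snx30, C3ar1 and Abhd12 (0.78 to 0.81), Rara like Dgkd, Ppp1r18, Zfp36l2, Tgfb1 and Camk1d (0.78 to 0.83), and among the genes most like Rarg were Cyth3, Ahnak, Golga3 and Itgb1 (0.73 to 0.74). Aldh1a3 was most like Ltbp1, Cdc42ep5, Epdr1, Gpc4 and Efs (0.85 to 0.87) and Rdh10 like Lamc1, Tnks1bp1, Epas1, Hdlbp and Parva (0.85 to 0.86). Between members, Rdh10 and Rarg were the most alike pair (0.62), Rdh12 and Aldh1a2 the least (-0.58), and Aldh1a2 and Dhrs3 stood at 0.32. The sums share libraries and depth, and these values are descriptions.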

How the data were processed

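Per the file headers and the submitters' processing notes, reads were processed with Cell Ranger (3.1.0 and 6.0.0 in the headers); the notes also list Seurat 3.1.1 and the genome build mm9, while the study's methods give mm10 and the gene identifiers matched GRCm38. The deposited matrices hold UMI counts per gene and cell, as the authors' pipeline wrote them, with no normalization. From these counts, cells with at least 300 genes, fewer than 100000 UMIs and under 10% mitochondrial UMIs were kept, counts were summed per library or cell group and scaled to 1000000 (Python 3.11.15, SciPy 1.17.1). Intervals were exact at 95%, a count of 0 was set against a floor of 3 counts, and self-tests used simulated data. Shares of cells used cells drawn down to 2000 UMIs. Cells were clustered with Seurat 5.3.0 (2000 variable genes, 15 components, resolution 0.5) and a cluster was named "-like" from at least 3 markers, at 50 CPM and 2-fold. It stayed unnamed with fewer, where its 10 leading genes by fold held more markers of other lists than of its own, or where its cells were shallow for their libraries and none of its markers was among those 10. Doublets were not removed; as an alternative, the 6% of cells with the highest Scrublet scores were left out. With 1 library per condition no test was made. The 7 members, the 29 other retinoid genes, the 9 targets and the marker lists were chosen with earlier results of these data known. Named beyond these are, for each member, the 5 genes with the most similar level over cluster sums with at least 20 cells. Some genes are not reported here by name, and the counts over the lists include them.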

Additional observations from a re-analysis of the deposited data

Results flagged for a closer look

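In 3 cases a member's ratio between the same wounds lay on opposite sides of 0 in different cell groups, counting only named groups with at least 100 UMIs of the gene in the 2 wounds together, intervals that leave out 0 in both groups and a ratio of at least 2-fold in one; with 1 library per condition the difference was not tested. Rdh10 in wounds with Ndrg2-KO against control DCs had a log2 ratio of 0.65 in fibroblast-like cells and -1.85 in endothelial-like cells, the latter on 20 and 97 UMIs. Rdh12 in the same wounds had a log2 ratio of 3.48 in macrophage-like cells, on 133 and 7 UMIs, and -0.34 in neutrophil-like cells. In macrophage-like cells Rdh12 met the limit of 100 UMIs only through wounds with Ndrg2-KO DCs, where it was high. S100a9 was also higher in those cells than with control DCs, and its part was not tested. Rara in wounds with Ndrg2-KO DCs against blank hydrogels had a log2 ratio of 0.24 in monocyte-like cells and -1.03 in neutrophil-like cells. Others fell short of these limits, such as Rdh12 with blank hydrogels against control DCs, at 1.89 in macrophage-like cells on 25 and 7 UMIs and -0.54 in neutrophil-like cells.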

How the results depend on the processing

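No ratio of at least 2-fold changed direction, but smaller ones did. The log2 ratio of Rara with VD3 turned from -0.32 to 0.14 with the 5% mitochondrial limit and 0.17 as a mean of per-cell CPM. Rdh10 turned from -0.13 to 0.14 with VD3 under that limit, from 0.11 to -0.10 for Ndrg2-KO against untreated DCs as a per-cell mean, and from 0.25 to -0.10 and -0.05 against VD3-DCs under both. In wounds with Ndrg2-KO against control DCs, Dhrs3 turned from -0.12 to 0.09 and Rarg from -0.06 to 0.15 without neutrophil-like clusters, and to 0.02 and 0.09 with median-ratio scaling. With blank hydrogels against control DCs, the per-cell mean turned Rara from 0.14 to -0.11, Rarg from 0.02 to -0.09 and Dhrs3 from 0.03 to -0.27; Dhrs3 was at -0.03 without the highest Scrublet scores, and Aldh1a3, at about 0, spanned -0.15 to 0.18. Rarg for Ndrg2-KO DCs against blank hydrogels turned from -0.08 to 0.02 with median-ratio scaling. The per-cell mean also changed which members were called: Rdh12 in the wounds gave way to Aldh1a3 (Ndrg2-KO against control DCs) and Rdh10 (blank against control), at an equal count; Rarg was not called with VD3 (-0.92); and Rdh12 was called lower in Ndrg2-KO against untreated DCs (-1.18). With the limit of 5% mitochondrial UMIs, called members were 2 in place of 4 for VD3-DCs and 1 in place of 3 for Ndrg2-KO against untreated DCs, where the lost VD3 calls were Rarg (-0.59) and Rdh12, at 1.64 in place of 1.13 but with too few UMIs; for Ndrg2-KO against VD3-DCs they ranged from 2 with this limit to 4 as a per-cell mean and without mitochondrial and ribosomal protein genes, beside 3. Rdh12 went from -0.19 to -1.23 with the limit in Ndrg2-KO against untreated DCs, and from -1.32 to -2.87 with it and -2.37 as a per-cell mean against VD3-DCs. The log2 ratio of Aldh1a2 with VD3 was -1.67 with this limit, -1.26 without the highest Scrublet scores, -1.28 with median-ratio scaling, -1.26 without mitochondrial and ribosomal protein genes and -1.66 as a mean of per-cell CPM. For Ndrg2-KO against untreated DCs it was 0.39, 1.15, 1.16, 0.99 and 1.22 in that order, and 1.22 with all barcodes. For Ndrg2-KO against VD3-DCs it was 2.06 with the 5% limit, 2.26 without mitochondrial and ribosomal protein genes, 2.88 as a per-cell mean and 2.60 with all barcodes. In mature DC-like cells the VD3 ratio was -2.03 with the 5% limit. The Ndrg2-KO ratio to untreated DCs there was 1.03 with all barcodes, 0.28 with the 5% limit, 0.81 with median-ratio scaling, 0.85 without mitochondrial and ribosomal protein genes, 0.80 as a per-cell mean and 0.81 with at least 2 mature genes; to VD3-DCs it was 2.80, 2.31, 2.58, 2.56, 2.58 and 2.52. The share of cells with an Aldh1a2 UMI in untreated DCs, VD3-DCs and Ndrg2-KO DCs was 4.88%, 1.51% and 11.3% at 1000 UMIs, 14.4%, 6.55% and 30.1% at 4000 UMIs, and 25.4%, 12.0% and 57.0% without thinning. In wounds, called members were 2 in place of 1 for blank hydrogels against control DCs with no minimum of UMIs, and 2 in place of 1 for Ndrg2-KO DCs against blank hydrogels with all barcodes, as a per-cell mean and without neutrophil-like clusters, the last chosen after seeing the data. There the per-cell mean moved Aldh1a2 from -1.29 to -2.13 and Aldh1a3 from -0.89 to -1.49, and leaving out neutrophil-like clusters moved Rdh12 from 0.53 to 1.25; against control DCs, Rara went from -0.17 to -0.78 as a per-cell mean and Rdh12 from 1.60 to 2.52 without those clusters. Aldh1a3 in fibroblast-like cells was at 45.0 CPM with 30 components and 50.7 CPM without the highest Scrublet scores; at resolution 1.0 Rara and Dhrs3 in macrophage-like cells were at 96.7 and 198 CPM. The causes were not tested. Of the main values, 85 alternatives stayed within the counting interval, or for counts within 1.5 times, and 47 did not. No paired analysis was possible because each condition is 1 library, and for the same reason no replicate could be left out.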
